A study of Homo sapiens with 6 samples.

Results

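The 8 genes CDC25A, CDC25B, CDC25C, WEE1, PKMYT1, CDK5, CKS1B and CKS2 encode the phosphatases, inhibitory kinases and adaptor proteins that set the activity of the cyclin-dependent kinases, together with CDK5. They were taken as a list of gene names, and every probe set (a group of short array probes read as 1 value) that the platform's annotation gives to one of them was used. That gave 12 probe sets for 8 of the 11963 genes with a probe set of their own on the array, and 0 member probe sets were shared with another gene. CDC25C had 3 probe sets, CDC25A and WEE1 had 2 each, and the other genes had 1 each.

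The cells were MDA-MB-231, an established mesenchymal-like, triple-negative breast cancer line, grown in RPMI medium with serum. The dinaciclib group held 3 samples taken 12 h after the drug, a small-molecule inhibitor of CDK1, CDK2, CDK5 and CDK9 given in the medium from a stock in DMSO (titles ending in F, 4 and 5). The baseline group held 3 samples of the same line at 0 h (titles ending in E, 4 and 5). The labels give no dose, no 12 h sample without the drug, and no word on solvent at baseline or on separate cultures, so drug, time and solvent cannot be told apart and p-values measure the spread between these samples only, which may be technical.

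CDC25 phosphatases remove the inhibitory phosphates that WEE1 and PKMYT1 (also called MYT1) place on a threonine and a tyrosine in the ATP-binding loop of CDK1 and, for WEE1, of CDK2. Entry into mitosis follows when the phosphatases outweigh the kinases. CKS1B and CKS2 are small proteins that bind the kinase and help it reach substrates that are already phosphorylated, and CKS1B also joins the SKP2 ligase in recognising the inhibitor p27. CDK5 is an unusual member of the kinase family, activated by p35 rather than by a cyclin and best known in neurons.

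Control regions are shown first because CDC25C, which fell, and both CKS genes, which did not pass the test, share a promoter element. RefSeq promoter windows of the build GRCh38.p14, each holding 250 bases before and 50 after an annotated start, were at hand for 6 of the 8 genes, 12 windows in all; those of WEE1 and PKMYT1 were not used here. Both strands were searched for TTTGAA, the cell cycle genes homology region (CHR) through which MuvB complexes act on late cell cycle genes, its variant TTCGAA, the CCAAT box bound by NF-Y, and TTTNNCGC, an E2F-type sequence. None of these motifs contains another. The stretches below run from 130 bases before to 20 after the start, 5′ to 3′ on the gene's strand, with every match in capitals.
CDC25A, chr3:48188398-48188547, minus strand: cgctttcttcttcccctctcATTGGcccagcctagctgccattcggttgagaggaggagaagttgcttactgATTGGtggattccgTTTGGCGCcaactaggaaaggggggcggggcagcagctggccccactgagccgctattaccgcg
CDC25B, chr20:3796180-3796329, plus strand: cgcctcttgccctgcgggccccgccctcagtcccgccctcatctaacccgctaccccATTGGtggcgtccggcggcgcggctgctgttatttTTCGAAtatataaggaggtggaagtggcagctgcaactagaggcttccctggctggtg
CDC25C, chr5:138331785-138331934, minus strand: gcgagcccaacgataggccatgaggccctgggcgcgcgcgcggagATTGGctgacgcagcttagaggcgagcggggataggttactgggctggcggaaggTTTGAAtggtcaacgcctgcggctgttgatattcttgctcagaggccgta
CKS1B, chr1:154974551-154974700, plus strand: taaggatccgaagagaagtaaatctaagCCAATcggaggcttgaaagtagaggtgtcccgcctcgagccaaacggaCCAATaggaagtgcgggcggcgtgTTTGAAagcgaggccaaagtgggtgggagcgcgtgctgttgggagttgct
CKS2, chr9:89311065-89311214, plus strand: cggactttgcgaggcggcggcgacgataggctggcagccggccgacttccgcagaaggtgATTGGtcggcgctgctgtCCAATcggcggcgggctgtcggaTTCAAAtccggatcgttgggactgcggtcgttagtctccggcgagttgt

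TTTGAA began 30 bases before the start in CDC25C, 30 before in CKS1B and, on the opposite strand, 29 before in CKS2. Of 35116 windows over all genes, 15.2% held it. CDC25B carried TTCGAA 38 bases before 1 of its 4 annotated starts, a sequence found in 1.45% of windows, and CDC25A carried the E2F-type sequence 44 bases before its start, found in 6.89%. A CCAAT box lay in 7 of the 12 member windows, among them those of the 5 stretches, and in 34.6% of all windows. CDC25C has 4 annotated starts, and the stretch shown belongs to the one with the CHR upstream of it; an overlapping window held the same TTTGAA 43 bases after its own start. The single CDK5 window held 0 of the 4 motifs. A match is a run of letters, and binding there was not measured.

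Array brightness and sample names bear on every value that follows. Median intensities over all tested probe sets were 40.6 to 46.8 on dinaciclib arrays and 53.3 to 66.2 on baseline arrays, and the median probe set had a log2 change of -0.21. The arrays with letter names stood apart in both groups on the 18S ribosomal RNA control, at 1155 on dinaciclib F against 8688 and 9061 on dinaciclib 4 and 5, and at 736 on baseline E against 8273 and 8642 on baseline 4 and 5. Of the expected markers of the line, each read on its brightest probe set, VIM, CD44, EGFR, CAV1 and MSN were brighter than at least 77.7% of probe sets, and PGR, CDH1, ESR1 and ERBB3 were brighter than at most 42.5%. GATA3, also listed among the dim markers, was brighter than 74.5% of probe sets, with mean intensities of 294 after dinaciclib and 350 at baseline. On those probe sets 1 gene in each list of 5 markers was called, as lower after dinaciclib: EGFR (log2 change -2.41) and ERBB3 (-1.52). Of the 8 probe sets of CD44, 2 dimmer ones were called as higher (1.15 and 1.09). GAPDH and ACTB had log2 changes of 0.05 and 0.13 and did not pass.

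After dinaciclib, CDC25C and CDC25B fell, as did PKMYT1 in the fit to all 6 samples, while no probe set of CDC25A, WEE1, CDK5, CKS1B or CKS2 passed the test. The test was limma on log2(intensity + 1) of all 22215 probe sets that are not array controls, and a probe set was called at a Benjamini-Hochberg adjusted p under 0.05, which is the adjusted p given throughout. Of the 12 member probe sets, 4 were called, all 4 as lower, against 17.2% of all probe sets called, 13.4% called as lower and 3.86% as higher. On 4 of the 12, every dinaciclib array lay below every baseline array, as on 26.5% of all probe sets, and on 0 of 12 did every dinaciclib array lie above, as on 10.1% of all. The median log2 change of the 12 was -0.04. In a bulk sample, fewer cells in a cycle phase and less RNA per cell cannot be told apart.

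**Figure D1:**
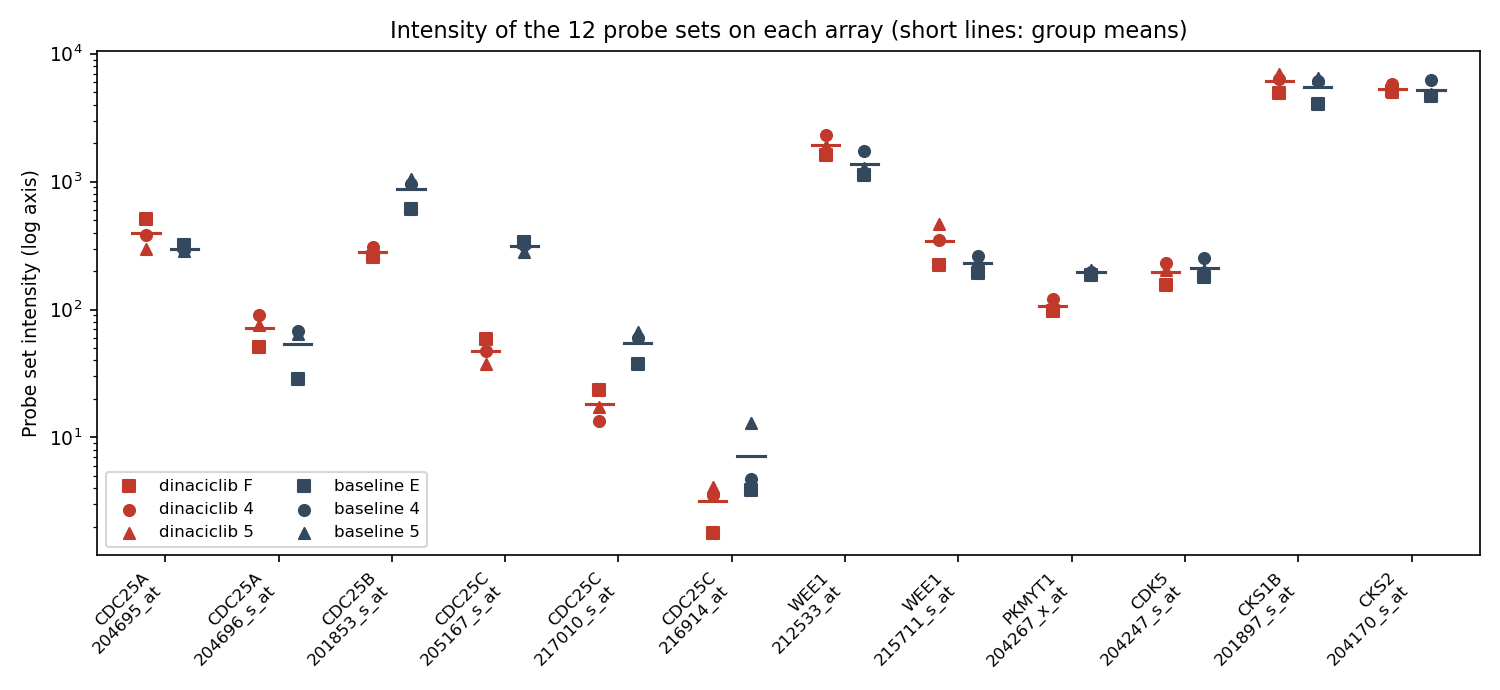
Intensity of each of the 12 probe sets (log axis) on every array, dinaciclib in red and baseline in dark blue, with symbols for the sample names and short lines for group means. The groups do not overlap for CDC25B, for CDC25C on 205167_s_at and 217010_s_at, and for PKMYT1, where all dinaciclib values are the lower ones.

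CDC25C, the phosphatase that acts on CDK1 at entry into mitosis, showed the largest change of the 8 genes. Its brightest probe set, 205167_s_at, read 58.5, 47.1 and 37.7 on dinaciclib F, 4 and 5, against 339, 317 and 284 on baseline E, 4 and 5. The highest dinaciclib array lay far below the lowest baseline array. The mean was 5.59 ± 0.31 log2 units after dinaciclib and 8.29 ± 0.13 at baseline (SD, n = 3 each), a log2 change of -2.71 ± 0.23 (SE) at an adjusted p of 0.00307 by limma, or 6.53-fold lower on the log2(intensity + 1) scale. It passed whichever 1 of the 6 samples was left out, with adjusted p up to 0.0216.

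The other CDC25C probe sets read lower levels and smaller changes. Probe set 217010_s_at read 23.7, 13.5 and 17.3 on dinaciclib F, 4 and 5, against 37.9, 60.3 and 66.5 on baseline E, 4 and 5. The groups did not overlap, with a log2 change of -1.54, a standard error of 0.31 and an adjusted p of 0.0221 in limma, but it failed without baseline 4, baseline 5, dinaciclib 4 or dinaciclib 5 and so passed in 2 of 6 such fits. Between the letter-named arrays its log2 difference, F minus E, was -0.65, while the numbered arrays alone gave a change of -1.98. Probe set 216914_at was brighter than 15.2% of all probe sets, at 1.81, 3.58 and 4.09 on dinaciclib F, 4 and 5 and 3.89, 4.73 and 12.9 on baseline E, 4 and 5. These groups overlapped, and it did not pass (log2 change -0.86, standard error 0.46, limma adjusted p = 0.272).

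CDC25B, a phosphatase that acts early in the approach to mitosis, partly at the centrosome, was 3.01-fold lower after dinaciclib. Its probe set 201853_s_at read 257, 307 and 281 on dinaciclib F, 4 and 5, against 609, 955 and 1049 on baseline E, 4 and 5. The dinaciclib arrays lay close together and all below the baseline arrays, of which E was the lowest. The mean was 8.14 ± 0.13 log2 units after dinaciclib and 9.73 ± 0.42 at baseline (SD, n = 3 each), a log2 change of -1.59 ± 0.26 (SE) at an adjusted p of 0.012 by limma. It passed in 5 of the 6 fits with 1 sample left out, and without baseline 4 its adjusted p was 0.0504.

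CDC25A, which acts on CDK2 at the start of S phase as well as on CDK1, did not pass on either probe set. Probe set 204695_at read 506, 384 and 296 on dinaciclib F, 4 and 5, against 318, 294 and 285 on baseline E, 4 and 5. The dinaciclib values spread widely and overlapped the tight baseline group, and the log2 change of 0.37 had a 95% interval of -0.23 to 0.97 (limma adjusted p = 0.385). It was 0.17 without dinaciclib F, 0.56 without dinaciclib 5, 0.22 on the numbered samples, 0.75 after quantile normalization and 0.82 after median centring (adjusted p = 0.0557), with no call. The dimmer probe set 204696_s_at read 50.8, 90.1 and 75.4 on dinaciclib F, 4 and 5, against 28.7, 68.0 and 64.5 on baseline E, 4 and 5, with a log2 change of 0.48 and an interval of -0.50 to 1.45 (limma adjusted p = 0.497). Here both letter-named arrays were the lowest of their groups, and the change was 0.08 without baseline E, 0.94 after quantile normalization and 0.93 after median centring.

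A constant factor on an array nearly cancels when the change of one probe set is subtracted from that of another, unlike a correction that varies with brightness, such as quantile normalization. Related probe sets were compared in this way on the values as deposited. The log2 change of CDC25C minus that of CDC25A was -3.07 with a standard error of 0.057, on their brightest probe sets, and that of CDC25B minus CDC25A was -1.96 with a standard error of 0.40. The value of 0.057 came from the array differences alone, and the limma standard errors were 0.23 for CDC25C and 0.25 for CDC25A. With log2(intensity + 16) the difference of CDC25C and CDC25A was -2.73. The change of CDC25C minus that of CDC25B was -1.12 (standard error 0.38). In all 3 comparisons every dinaciclib array lay on one side of every baseline array. Each gave a two-sided exact permutation p of 0.1, the smallest that 3 against 3 samples allow, and 0.2 after Benjamini-Hochberg adjustment over the 10 such comparisons, so none could pass at this number of samples. The 2 probe sets of CDC25A differed in change by -0.11 (standard error 0.61, exact permutation p = 0.5), and those of CDC25C, 205167_s_at minus 217010_s_at, by -1.17 (standard error 0.37, exact permutation p = 0.1).

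Of the inhibitory kinases, PKMYT1 was called as lower and WEE1 was not called. WEE1, the nuclear kinase that phosphorylates the tyrosine, did not pass on either probe set, and both means were higher after dinaciclib. Its brighter probe set 212533_at read 1626, 2322 and 1900 on dinaciclib F, 4 and 5, against 1127, 1732 and 1268 on baseline E, 4 and 5. The groups overlapped through baseline 4, and the log2 change was 0.51 with a 95% interval of -0.10 to 1.12 (limma adjusted p = 0.236). Array against array, the log2 difference was 0.53 for F minus E, 0.42 between the arrays named 4 and 0.58 between those named 5. The labels do not say that these names pair the samples, and with such pairs in the fit it was not called (limma adjusted p = 0.0902). Probe set 215711_s_at read 223, 348 and 464 on dinaciclib F, 4 and 5, against 193, 261 and 243 on baseline E, 4 and 5, with a log2 change of 0.52 and an interval of -0.24 to 1.28 (limma adjusted p = 0.332). Its differences in the same order were 0.21, 0.41 and 0.93. The changes of these probe sets differed by -0.0075 (standard error 0.28, exact permutation p = 1), and by -0.41 after quantile normalization. With each array centred on its median, 212533_at was called as higher (0.96, limma adjusted p = 0.0173).

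PKMYT1, the membrane-bound kinase of the pair, which phosphorylates both residues of CDK1, read 97.8, 120 and 104 on dinaciclib F, 4 and 5, against 186, 197 and 204 on baseline E, 4 and 5. Both groups were tight and did not overlap. The mean was 6.76 ± 0.15 log2 units after dinaciclib and 7.62 ± 0.07 at baseline (SD, n = 3 each), a log2 change of -0.86 ± 0.19 (SE) at an adjusted p of 0.0259 by limma. The call held in 1 of the 6 fits with 1 sample left out, that without baseline E, and ended on the numbered samples alone (-0.83, adjusted p = 0.0759). It held after centring on control probe sets (-0.98, adjusted p = 0.0323) and ended after quantile normalization (-0.38, adjusted p = 0.118) and median centring (-0.41, adjusted p = 0.0916). The change of PKMYT1 minus that of WEE1 was -1.37 with a standard error of 0.18 and no overlap of the groups (exact permutation p = 0.1, adjusted over 10 comparisons 0.2), and after quantile normalization it was -0.88. Its only probe set, 204267_x_at, is of a type whose probes may also match similar sequences, so its reading is less certain.

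**Figure D2:**
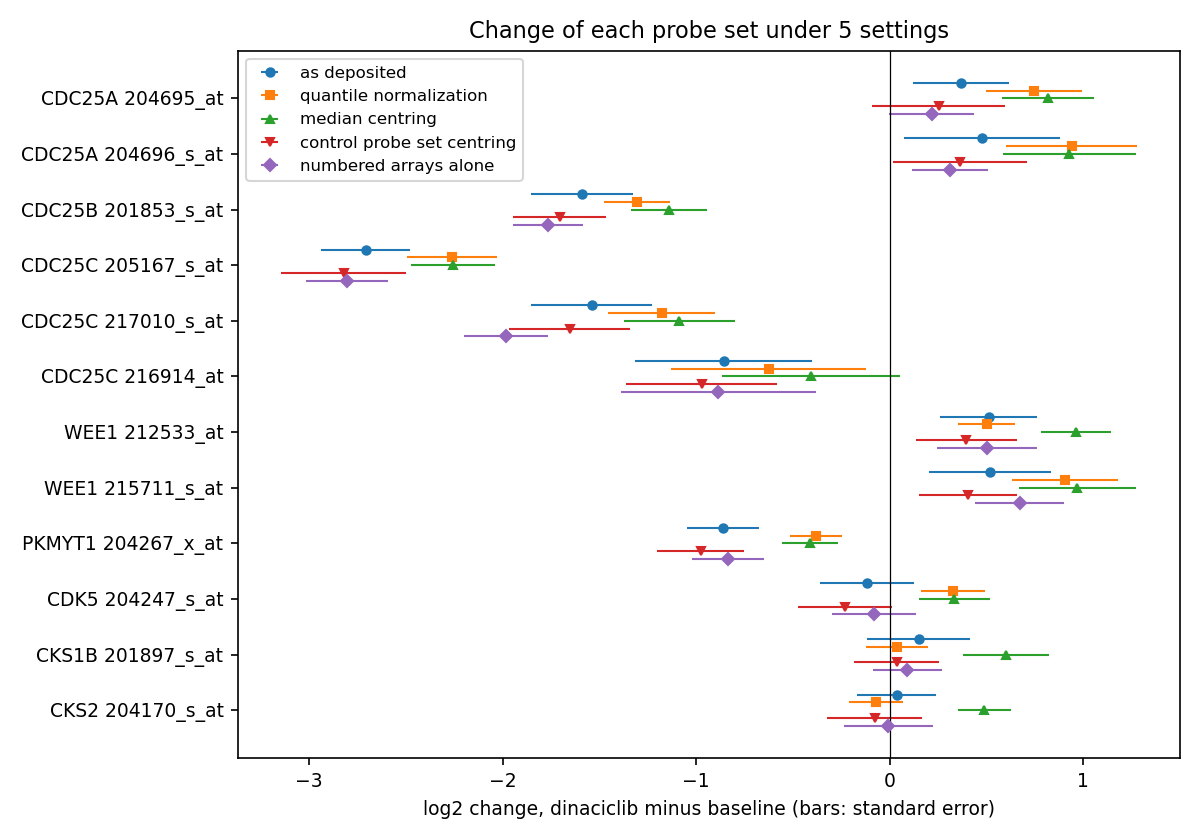
Log2 change, dinaciclib minus baseline, of each probe set with its standard error as deposited, under 3 other scalings and on the 4 numbered arrays alone. CDC25B and the brighter probe sets of CDC25C lie below 0 under all 5 settings, PKMYT1 moves toward 0 under quantile normalization (-0.38) and median centring (-0.41), and CDK5 and CKS2 lie on both sides of 0.

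CDK5 did not pass the test, and its direction was not settled. Its probe set 204247_s_at read 156, 230 and 202 on dinaciclib F, 4 and 5, against 179, 255 and 205 on baseline E, 4 and 5. The groups overlapped, and the spread within each was larger than the difference of means. Array against array, the log2 difference was -0.19 for F minus E, -0.15 between the arrays named 4 and -0.016 between those named 5. The log2 change was -0.12 with a 95% interval of -0.71 to 0.47 (limma adjusted p = 0.801), and quantile normalization and median centring each turned it to 0.33, also without a call.

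The CKS adaptors were the brightest members, above at least 98.1% of all probe sets, and neither passed the test. CKS1B on 201897_s_at read 4918, 6351 and 6982 on dinaciclib F, 4 and 5, against 4077, 6078 and 6434 on baseline E, 4 and 5. The letter-named array was the lowest in both groups, and the log2 change was 0.15 with a 95% interval of -0.49 to 0.79 (limma adjusted p = 0.761). CKS2 on 204170_s_at read 5133, 5843 and 5036 on dinaciclib F, 4 and 5, against 4700, 6180 and 4806 on baseline E, 4 and 5. All 3 dinaciclib values lay within the baseline range, and the log2 change was 0.04 with a 95% interval of -0.45 to 0.53 (limma adjusted p = 0.93). The changes of CKS1B and CKS2 differed by 0.11 (standard error 0.24, exact permutation p = 0.6). Both intervals lie above the changes of CDC25C on 205167_s_at (-2.71) and CDC25B (-1.59). Whether the promoter motifs of these genes bear on their changes was not tested. The plot of change against brightness sets the members among all probe sets.

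**Figure D3:**
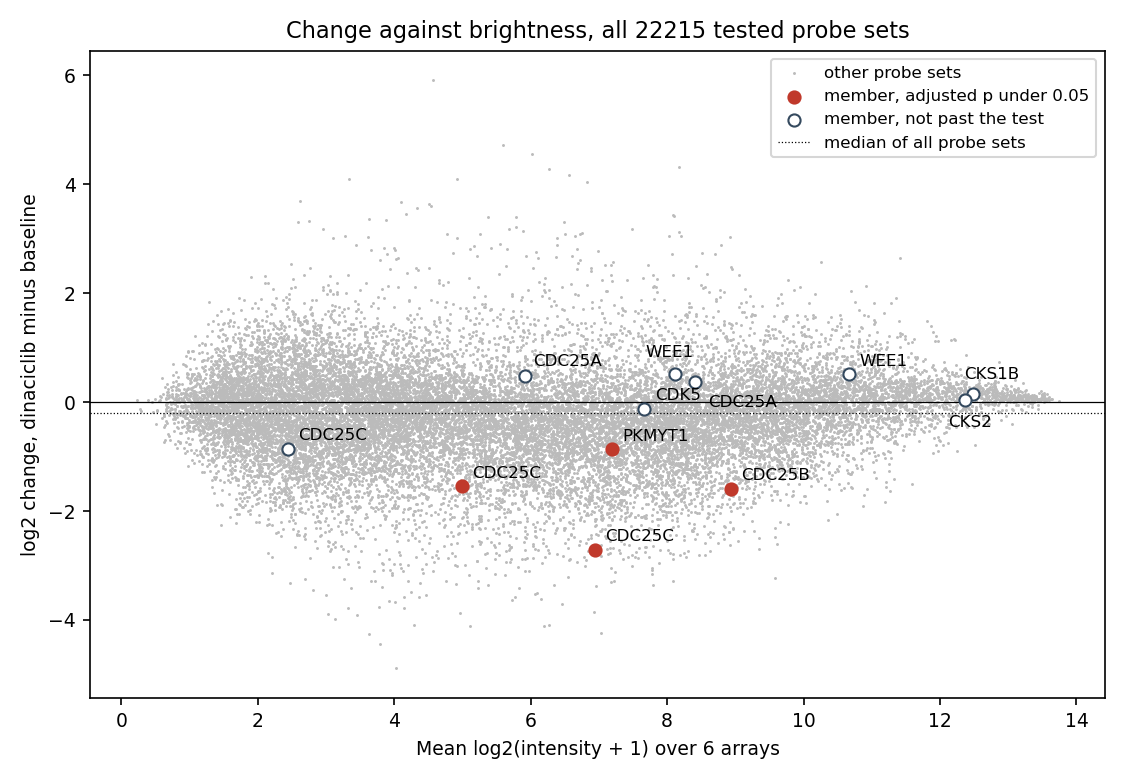
Log2 change, dinaciclib minus baseline, against mean log2(intensity + 1) over the 6 arrays for all 22215 tested probe sets (grey), with the 12 member probe sets marked as called (red) or not past the test (open). CDC25C on 205167_s_at lies at -2.71 near the lower edge of the cloud, while CKS1B and CKS2 sit at its bright end, and the dotted line marks the median change of -0.21.

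The partners and regulators of these proteins were read from 5 lists, each gene by its brightest probe set, on which 15.8% of all genes were called as lower and 3.32% as higher, with a median log2 change of -0.26. Of 7 CDK and cyclin partners, 3 fell, 0 rose and 4 did not pass, with a median of -0.58. CCNB1, the mitotic cyclin B1, read 1323, 1516 and 1300 on dinaciclib F, 4 and 5, against 3375, 4736 and 4145 on baseline E, 4 and 5, with a log2 change of -1.56 and a standard error of 0.21 (limma adjusted p = 0.00688). CCNA2, cyclin A2, had a log2 change of -0.93 (standard error 0.23, adjusted p = 0.0404), and its other probe set was called as lower too. The kinase CDK2 had a log2 change of -0.88 (standard error 0.21, adjusted p = 0.0362), with 1 of its 3 probe sets called, and CDK1 one of 0.30 (standard error 0.22, adjusted p = 0.433), with 0 of its 3 probe sets called. The calls of CCNA2 and CDK2 ended under median centring, where CDK1 was called as higher (0.75, adjusted p = 0.042). Both calls also ended on the numbered samples alone (adjusted p = 0.0561 for CCNA2 and 0.0719 for CDK2). With E and F as a pair, CCNA2 did not pass (adjusted p = 0.0754) and CDK2 did (adjusted p = 0.0413).

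Among 13 measured kinases and binding proteins that act on CDC25 or WEE1, of 15 listed, 3 fell, 0 rose and 10 did not pass, with a median of -0.41. Under median centring, where 35.7% of all called probe sets were lower, 1 gene of this list was called as lower and 3 as higher. YWHAH, the 14-3-3 protein eta, one of the family that holds phosphorylated CDC25 in the cytoplasm, had a log2 change of -1.19 (standard error 0.27, adjusted p = 0.0289). The other measured genes of that family did not pass. Their log2 changes were 0.008 for YWHAB, 0.34 for YWHAE, 0.06 for YWHAQ, -0.0007 for YWHAZ and 0.22 for SFN. PLK1, the mitotic kinase that activates CDC25C and marks WEE1 for destruction, had mean intensities of 41.3 after dinaciclib and 83.2 at baseline and a log2 change of -0.99 (standard error 0.25, adjusted p = 0.0424). Its call ended under quantile normalization (-0.53) and median centring (-0.54), with letter or number names as a covariate (-0.99, adjusted p = 0.0526) and on the numbered samples alone (-1.23, adjusted p = 0.0715). The third call was BORA, a cofactor through which Aurora A activates PLK1 (log2 change -0.90, standard error 0.19, adjusted p = 0.0261). Without baseline 4, baseline 5, dinaciclib F, dinaciclib 4 or dinaciclib 5, 0 genes of this list were called as lower, so BORA did not pass there either. CHEK1, a checkpoint kinase that phosphorylates CDC25, had a log2 change of -0.41 and did not pass (adjusted p = 0.271).

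The SCF ubiquitin ligase, through which CDC25A, WEE1 and p27 are degraded, was read from 9 genes, p27's own CDKN1B and the activator FZR1 of another ligase among them, of which 1 fell, 0 rose and 8 did not pass, with a median of -0.25. The gene that fell was CUL1, its scaffold (log2 change -0.80, standard error 0.19, adjusted p = 0.0329), a call that ended under median centring (-0.35). With that centring, 0 genes of this list were called as lower and 3 as higher. SKP2, whose protein works with CKS1B, had a log2 change of 0.28 and did not pass (adjusted p = 0.471). PP2A-B55, of which PPP2CA is a catalytic subunit, removes phosphates that CDK1 placed on its substrates. Of 8 listed genes of Greatwall, PP2A-B55 and the inhibitors of it that Greatwall activates, 7 were measured. Among these, PPP2CA rose, 0 genes fell and 6 did not pass, with a median of 0.17. Under median centring, 3 genes of this list were called as higher and 0 as lower. Other probe sets of these genes read differently, with 2 of 3 called as higher for ARPP19 (2.12 and 2.44, against 0.17 on the brightest) and 1 of 3 called as lower for ENSA (-1.52, against -0.18), both encoding inhibitors of PP2A-B55. PPP2CA read 5989, 6207 and 6094 on dinaciclib F, 4 and 5, against 3680, 4018 and 3695 on baseline E, 4 and 5, a log2 change of 0.68 (standard error 0.17, adjusted p = 0.0419) that did not pass after centring on control probe sets (0.57, adjusted p = 0.139).

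The partners of CDK5 gave 1 call in each direction, and the CDK5 transcript itself did not pass. Of 5 measured activators and binders of CDK5, of 7 listed, 1 rose, 1 fell and 3 did not pass, with a median of -0.78. That median is the value of CDK5R2, whose probe set was dim, at means of 8.80 after dinaciclib and 15.7 at baseline. CDK5R2 did not pass (standard error 0.53, limma adjusted p = 0.393). Over all genes, 3.32% were called as higher and 15.8% as lower. CDK5R1, which encodes the activator p35, read 250, 316 and 340 on dinaciclib F, 4 and 5, against 115, 154 and 119 on baseline E, 4 and 5. All dinaciclib arrays lay above all baseline arrays, with a log2 change of 1.22 and a standard error of 0.23 (limma adjusted p = 0.0166). Its other probe set was dim, at means of 3.53 after dinaciclib and 6.97 at baseline, with a log2 change of -0.93 that did not pass (adjusted p = 0.187). CDK5RAP1, named for binding the CDK5 activator and known as an enzyme that modifies transfer RNA, had a log2 change of -1.07 (standard error 0.24, adjusted p = 0.0305). CDK5R1 did not pass on the 4 numbered arrays (1.27, adjusted p = 0.0536) or without baseline 5, dinaciclib 4 or dinaciclib 5, with adjusted p up to 0.0699. Of the other named calls in these lists, BORA left aside, CCNB1 alone passed whichever 1 sample was left out, while CDK2, CCNA2, PLK1, YWHAH, CUL1 and CDK5RAP1 passed without baseline E and failed without any of the other 5 samples, and PPP2CA failed in all 6 such fits.

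**Figure D4:**
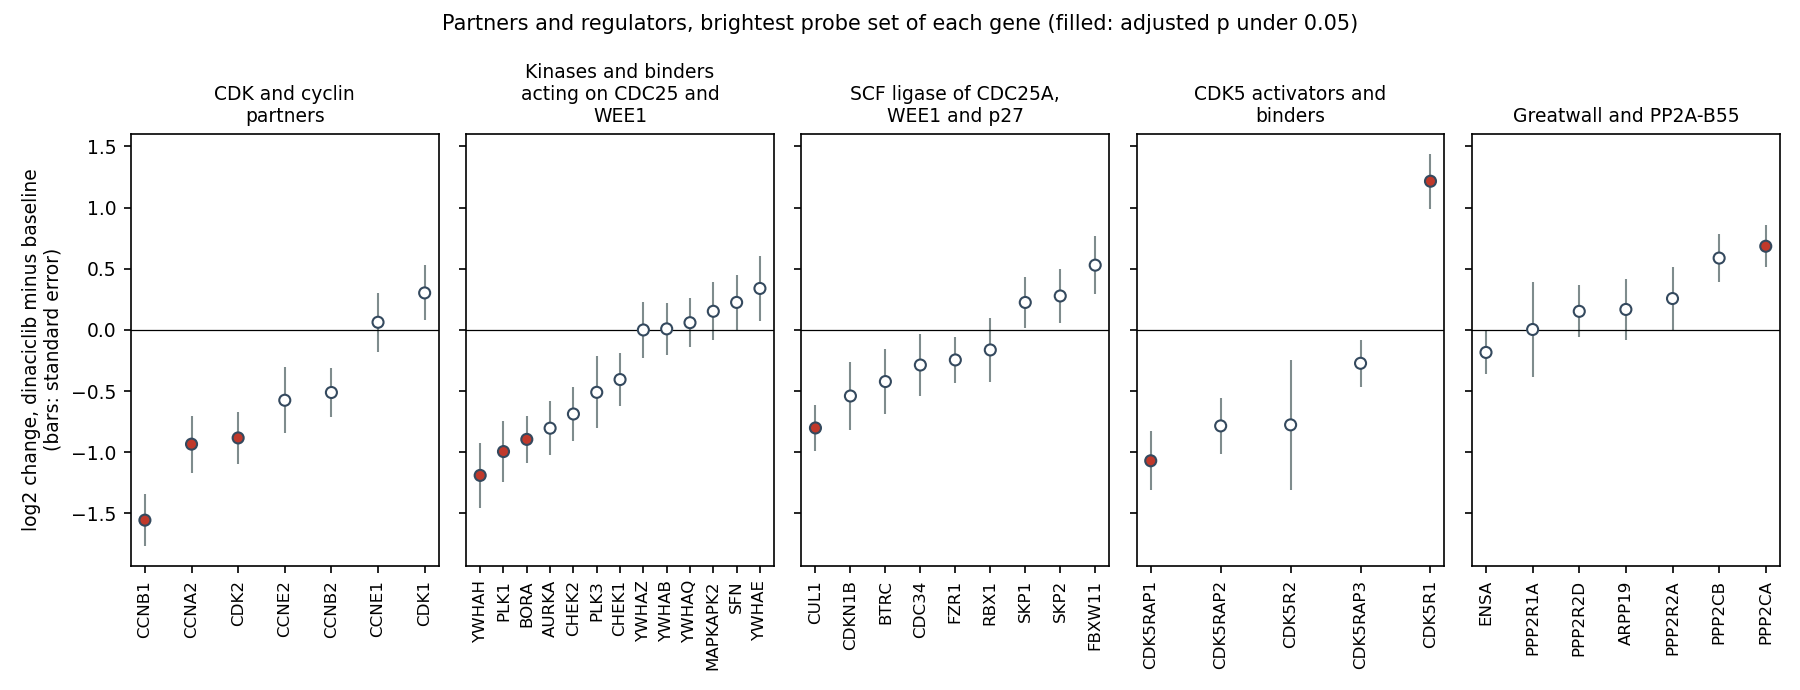
Log2 change, dinaciclib minus baseline, with its standard error for the brightest probe set of each measured gene in 5 lists of partners and regulators, filled where the adjusted p was under 0.05. CCNB1 (-1.56) lies lowest and CDK5R1 (1.22) highest of the genes shown.

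The members were set beside the genes whose values followed theirs over the 6 arrays, by Pearson correlation of log2 values with the 6428 other genes whose brightest probe set averaged at least 6 log2 units. With 6 arrays in 2 groups high correlations are common, and 889 genes exceeded 0.95 with CDC25C, 1051 with CDC25B and 935 with PKMYT1, so these are descriptions. Nearest to CDC25C were HECTD4 (r = 0.999), PRKD2 (r = 0.999) and TASOR (r = 0.998), and nearest to CDC25B were HNRNPDL (r = 0.999), ARAP1 (r = 0.998) and HMGB3 (r = 0.998). For PKMYT1 the nearest were TAOK3, EVI2A and SP110, all at r = 0.999. The members that were not called followed other genes, CDC25A most closely SMC3 (r = 0.995), MKI67 (r = 0.978) and ZBED1 (r = 0.977), with 13 genes above 0.95. That count was 130 for WEE1, 57 for CDK5, 112 for CKS1B and 18 for CKS2. WEE1 was nearest to RAD21 (r = 0.999), TWF1 (r = 0.994) and GGH (r = 0.992), CDK5 to HSDL2, HYOU1 (both r = 0.993) and TPGS2 (r = 0.992), CKS1B to RPS27 (r = 0.998), GLIPR1 and RPS19 (both r = 0.994), and CKS2 to PROS1 (r = 0.997), MAGT1 (r = 0.993) and CDC42BPB (r = 0.983). These arrays share the difference in brightness between the groups and between letter-named and numbered arrays, whose part in the correlations was not tested.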

How the data were processed

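Messenger RNA of 6 samples was read on single-colour oligonucleotide arrays with a biotin label, per the labels. The deposited file holds a linear intensity for each probe set; the authors' background correction and scaling are steps not given in the sources used here. Of 22277 probe sets, 62 controls were left out and 22215 tested; 19064 had 1 gene (19052 matched by gene identifier to RefSeq, GRCh38.p14), 1043 several and 2108 none named. log2(intensity + 1), as deposited, was fitted with limma 3.58.1 in R 4.3.3 with a term for group alone, adjusting p-values over all rows. The fit was tested on simulated data. Correlations of array pairs ran 0.963 to 0.972 inside groups and 0.937 to 0.947 across them, and 0% of values were identical. The number of arrays limits the precision.

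Named genes were all members, in each list up to 2 called rises and 2 called falls of largest size, CDK1 and CDK2, and the 3 genes nearest to each member. ARPP19, BORA, CD44, CDK5R2, CHEK1, ENSA, SFN, SKP2, YWHAB, YWHAE, YWHAQ and YWHAZ were added after their values were seen. Members and lists were chosen with earlier results of these data known. Alternatives were other scalings, a replicate block, a letter or number covariate, numbered samples alone, no probe sets under the 40th percentile, a variance trend, log2(intensity + 16), 1 probe set per gene, and each sample left out. A block with E and F as a pair was added after seeing the data. Figures were drawn with matplotlib 3.10.9.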

Additional observations from a re-analysis of the deposited data

How the results depend on the processing

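As deposited, 3828 probe sets were called, of which 77.6% fell. That share was 52.3% of 4468 after quantile normalization, 35.7% of 5425 after median centring and 82.9% of 3682 after centring on control probe sets. The numbered samples alone called 2170, and fits without 1 sample called 1623 to 3313, with fewer samples in the fit. Of the 12 member probe sets, 4 were called as deposited and 1 to 4 without 1 sample, 1 of them (CDC25C on 205167_s_at) without baseline 4. With the replicate block, in which E and F stand alone and 1 residual degree of freedom is left, 0 probe sets and 0 member probe sets were called, and CDC25C on 205167_s_at had a change of -2.80 with an adjusted p of 0.101. With E and F as a pair, 3487 were called, 3 of them members. Over all tested probe sets, dim ones included, same-numbered samples shared deviations from their group means only weakly (correlations of 0.083 and 0.076). Such correlations cannot exclude a pairing, and the main fit took none. With E and F as a pair, the standard error of WEE1 on 212533_at was 0.13, against 0.25 in the main fit. That of CKS1B was 0.14 against 0.26, while that of CDC25C on 217010_s_at was larger, at 0.36 against 0.31. Signs turned for CDK5 (0.33 under both quantile normalization and median centring, -0.24 to 0.036 without 1 sample), CKS2 (-0.069 under quantile normalization, -0.076 with control centring, -0.0066 with the block and with the numbered samples, -0.033 to 0.16 without 1 sample) and CKS1B (-0.055 to 0.30 without 1 sample); none of these was a called result, and the cause was not tested. Of the 10 differences in change between probe sets, under quantile normalization (chosen after seeing the data for these) PKMYT1 minus WEE1 moved to -0.88 and that between the WEE1 probe sets to -0.41, and with log2(intensity + 16) CDC25C minus CDC25A moved to -2.73; the others, and all 10 on the numbered samples and without 1 sample, moved by less than their spread. No detection calls were used here, so whether the dim probe set 216914_at lies above background was not judged.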
